A study of Rattus norvegicus with 16 samples.

Results

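A set of 10 genes of the early response to growth signals was followed in PCCl3 rat thyroid cells after silencing of Pax8: the transcription factors Egr1, Egr2, Egr3, Myc and Klf4, the early response gene Ier3, and the dual specificity phosphatases Dusp1, Dusp4, Dusp5 and Dusp6. They were chosen by symbol, as early response factors outside the AP-1 family and as the phosphatases that end MAP kinase signals, and all 10 were found among the 8899 genes that the array names, each with 1 of the 41012 probes tested. PCCl3, a rat line that keeps the thyroid program in culture, was maintained in serum and hormones, TSH and insulin among them. Cells transfected with an siRNA against Pax8 (siPax8) were hybridized to 2-colour Agilent arrays against wild type cells (wt) or against cells given a scrambled siRNA (siScramble). Both siRNAs were delivered with Lipofectamine 2000 at 10 ng/ml, and RNA was taken 48 hours after transfection. The labels call the wt cells wild type and give no transfection for them, whereas the methods speak of lipofectamine-treated cells, so whether they met the transfection reagent is unclear. Each comparison had 4 biological replicates, each hybridized in both dye orientations, so 8 arrays. The sources used here do not say whether the same siPax8 cultures served both comparisons, so whether the comparisons are independent of each other is not known.

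Immediate early genes are transcribed within minutes of a growth factor, hormone or stress signal, without new protein synthesis. The ERK branch of the MAP kinases phosphorylates ETS factors that bind beside serum response factor, and the promoters of Egr1 and its relatives respond through the serum response factor site, the CArG box. The MAP kinase phosphatases of the Dusp family are themselves early genes and switch the kinases off again, Dusp1 in the nucleus for p38, JNK and ERK, Dusp4 and Dusp5 in the nucleus, and Dusp6 in the cytoplasm for ERK. In thyroid follicular cells TSH acts through cyclic AMP, and cyclic AMP and serum both induce members of this group.

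Promoter sequence was read from RefSeq (GRCr8) for the 6 of the 10 genes that the table holds, from 250 bases before to 50 bases after the transcription start, to show the response elements that the members share and do not share. Capitals mark every match on either strand to the CArG box or to the full cyclic AMP response element TGACGTCA. They also mark every match to CCGGAA, a form of the ETS site, and to the EGR sites GCGGGGGCG and GCGTGGGCG. No matches overlapped each other. The 4 windows with a match to the CArG box or to the cyclic AMP element are printed 5′ to 3′ on the strand of the gene. The motifs were chosen with the expression results known.
Egr1, chr18:26736828-26737127, plus strand: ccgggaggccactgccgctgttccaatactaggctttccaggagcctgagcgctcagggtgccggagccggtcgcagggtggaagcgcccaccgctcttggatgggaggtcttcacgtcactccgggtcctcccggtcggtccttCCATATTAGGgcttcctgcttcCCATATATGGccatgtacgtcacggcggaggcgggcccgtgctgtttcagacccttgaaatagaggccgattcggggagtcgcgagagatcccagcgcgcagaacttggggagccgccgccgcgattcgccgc
Egr2, chr20:21054392-21054691, minus strand: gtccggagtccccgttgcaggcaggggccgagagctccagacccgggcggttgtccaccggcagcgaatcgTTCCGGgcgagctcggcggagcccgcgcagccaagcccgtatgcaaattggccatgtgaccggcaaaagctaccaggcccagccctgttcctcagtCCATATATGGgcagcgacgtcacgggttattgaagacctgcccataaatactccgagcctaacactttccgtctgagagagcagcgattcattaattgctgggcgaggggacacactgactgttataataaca
Dusp5, chr1:262543524-262543823, plus strand: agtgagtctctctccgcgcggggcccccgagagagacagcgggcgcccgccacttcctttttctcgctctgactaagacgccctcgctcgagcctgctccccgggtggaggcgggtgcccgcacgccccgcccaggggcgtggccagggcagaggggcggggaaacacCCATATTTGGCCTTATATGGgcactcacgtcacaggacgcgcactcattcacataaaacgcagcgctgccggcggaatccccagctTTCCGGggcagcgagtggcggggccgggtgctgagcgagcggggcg
Dusp1, chr10:17184603-17184902, plus strand: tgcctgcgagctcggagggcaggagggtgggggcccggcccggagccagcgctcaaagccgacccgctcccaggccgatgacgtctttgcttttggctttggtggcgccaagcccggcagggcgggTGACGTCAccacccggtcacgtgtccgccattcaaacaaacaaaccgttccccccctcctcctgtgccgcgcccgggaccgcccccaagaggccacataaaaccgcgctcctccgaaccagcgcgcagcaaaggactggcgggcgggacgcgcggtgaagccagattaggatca

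The CArG box was present in the windows of Egr1, Egr2 and Dusp5 and in 1.64% of all 33469 promoters of the table. Egr1 carried 2 boxes, starting 105 and 83 bases before the transcription start, and Dusp5 carried 2 adjoining boxes that start 82 and 72 bases before it. Egr2 carried 1 box, starting 83 bases before the start. The full cyclic AMP response element was found in Dusp1, 124 bases before the start, and in 1.83% of all promoters. The ETS sequence CCGGAA was found in Egr2 and Dusp5 and in 15% of all promoters, whereas neither EGR site, held by 2.73% and 0.544% of promoters, occurred in these 6 windows. The windows of Klf4 and Dusp6 held none of these matches. Only these forms were searched. ETS sites with other flanking bases, and shorter or partial ETS and cyclic AMP sites, were thus not marked or counted in any window. A match is a description of the sequence only.

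The silenced gene checks the labels. Pax8 itself gave log2 ratios to wt of -0.84, -0.57, -0.59 and -0.26 in replicates 1 to 4, a mean of -0.56 ± 0.24 (SD, n = 4; limma, Benjamini-Hochberg adjusted p = 0.000472, or 0.00562 without replicate 3). The Pax8 call was also lost with the intensities processed by the scanner software (-0.58, adjusted p = 0.0200) and with siPax8 in Cy3 alone (-0.47, adjusted p = 0.0181). Against siScramble its ratios were -0.58, -0.29, -0.12 and -0.007, a mean of -0.25 ± 0.25 that did not pass the test (adjusted p = 0.143), so the transcript was lower in siPax8 cells in all 4 replicates of both comparisons but close to equal in replicate 4 against siScramble. Thyroid markers such as Tg, the thyroid hormone precursor, and Slc5a5, the iodide transporter, were above background in siPax8 cells. Of 7 measured thyroid markers, 6 fell against wt and 1, Tg, against siScramble, where it did not pass without replicate 2 (adjusted p = 0.00827). Of the probes for markers of fibroblasts, C cells and endothelium, 3 of 5, 3 of 6 and 1 of 2 were never well above background on any array, while 1 probe of Col1a2 and 1 of Calca, named after their values were seen, were above it on all 8 arrays against wt. These lists had 0 of 4, 4 and 2 measured genes called by limma in either comparison and, at an unadjusted p under 0.05, 1 fibroblast gene against siScramble. Cd68, the only leukocyte marker measured, rose against wt by 0.30 ± 0.12 (adjusted p = 0.000797; 0.00675 and 0.00559 without replicate 3 or 4) and had a ratio of -0.0025 ± 0.088 to siScramble. The share of spots well above background ran from 54.0% to 60.8% over the arrays in Cy3, and from 52.0% to 59.1% in Cy5. In RNA from a culture, fewer cells with a transcript and less transcript per cell cannot be told apart.

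Against wt cells 7 of the 10 genes passed the adjusted p threshold of 0.005, where 15.3% of all probes did. Egr1, Egr2, Myc, Dusp5 and Dusp6 were higher in siPax8 cells, and Ier3 and Dusp1 were lower. Against siScramble cells 2 of the 10 passed, Dusp4 and Dusp6, both higher in siPax8 cells, where 2.11% of all probes did. The genes were chosen with earlier results of these data known, so their counts beside these shares are a description and no test of the set. Dusp6 passed in both comparisons. The median log2 ratio of all named genes was -0.0052 against wt and -0.0034 against siScramble.

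**Figure D1:**
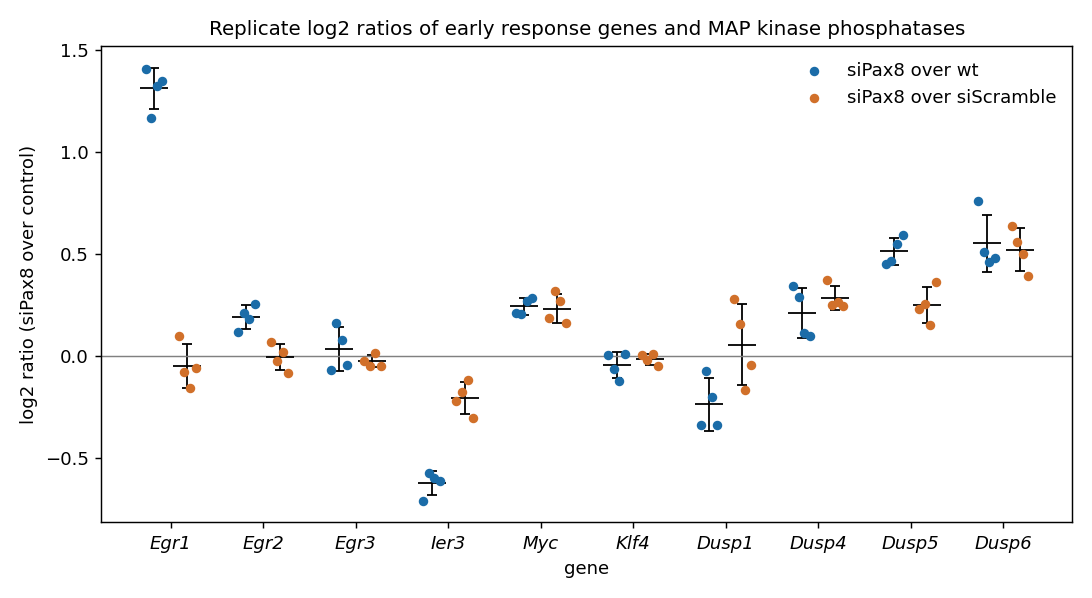
Log2 ratios of siPax8 over wt (blue) and over siScramble (orange) for the 10 genes. Points are the 4 replicates with dye orientations averaged, and black bars are the mean ± SD. Egr1 lies at 1.17 to 1.41 against wt and around 0 against siScramble, whereas Dusp6 lies between 0.39 and 0.76 in both.

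Egr1 encodes a zinc finger factor that is among the fastest genes to answer ERK activity, and it showed the largest ratio of the group. Its log2 intensity was 8.09, 8.14, 8.12 and 8.06 in wt replicates 1 to 4 and 9.50, 9.31, 9.44 and 9.41 in the siPax8 cells beside them. The groups were far apart, and the log2 ratio of 1.41, 1.17, 1.33 and 1.35 gave a mean of 1.31 ± 0.10 (SD, n = 4; limma adjusted p = 1.42e-07), or 2.49-fold. In siScramble cells the log2 intensity was 9.37, 9.37, 9.60 and 9.38, against 9.47, 9.29, 9.44 and 9.32 in the siPax8 cells beside them. These groups overlapped, with a mean log2 ratio of -0.049 ± 0.11 (adjusted p = 0.637; 95% interval -0.15 to 0.051). Cells given either siRNA thus had about the same Egr1 signal, and wt cells a lower one. By mean ratio Egr1 stood at rank 26 of the 8899 named genes against wt, and at rank 13 by the difference between the comparisons.

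The Egr1 probe is printed in 10 spots on each array, which shows the error within an array. Over the 8 arrays against wt the single spots ranged from 0.94 to 1.6, with an SD within an array of 0.050 to 0.10. Over the arrays against siScramble they ranged from -0.30 to 0.29, with an SD of 0.025 to 0.078. No spot of one comparison reached the range of the other. The 8 arrays against wt gave ratios from 1.04 to 1.53, over both dyes.

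Egr2, a relative of Egr1 that binds the same kind of site, gave log2 ratios to wt of 0.12, 0.21, 0.18 and 0.26. The mean was 0.19 ± 0.058 (SD, n = 4; limma adjusted p = 0.0019), and the 8 arrays all lay above 0. The probe was dim: it was well above background on 7 of 8 arrays in the siPax8 channel but on 2 of 8 in the wt channel, and the size of the ratio moved with the background correction. With a normexp offset of 10 in place of 50 it was 0.37, and with the intensities processed by the scanner software it was 1.21, without passing the test (limma adjusted p = 0.0109). The call was also lost without replicate 2, 3 or 4 (adjusted p = 0.0137, 0.0137 and 0.0141). Against siScramble its ratios were 0.067, -0.024, 0.022 and -0.083, on both sides of 0 (mean -0.0043 ± 0.064, adjusted p = 0.97). Egr3, the next member of the family, was not well above background in wt or siScramble cells on any array and was above it on 1 of 8 arrays in the siPax8 channel of the wt comparison. Its log2 ratios to wt of -0.066, 0.16, 0.082 and -0.042 lay on both sides of 0, and their mean of 0.034 ± 0.11 did not pass the test (adjusted p = 0.677). Its ratio to siScramble was -0.026 ± 0.029 (adjusted p = 0.697), with both channels below background, and no fold is given for Egr3.

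**Figure D2:**
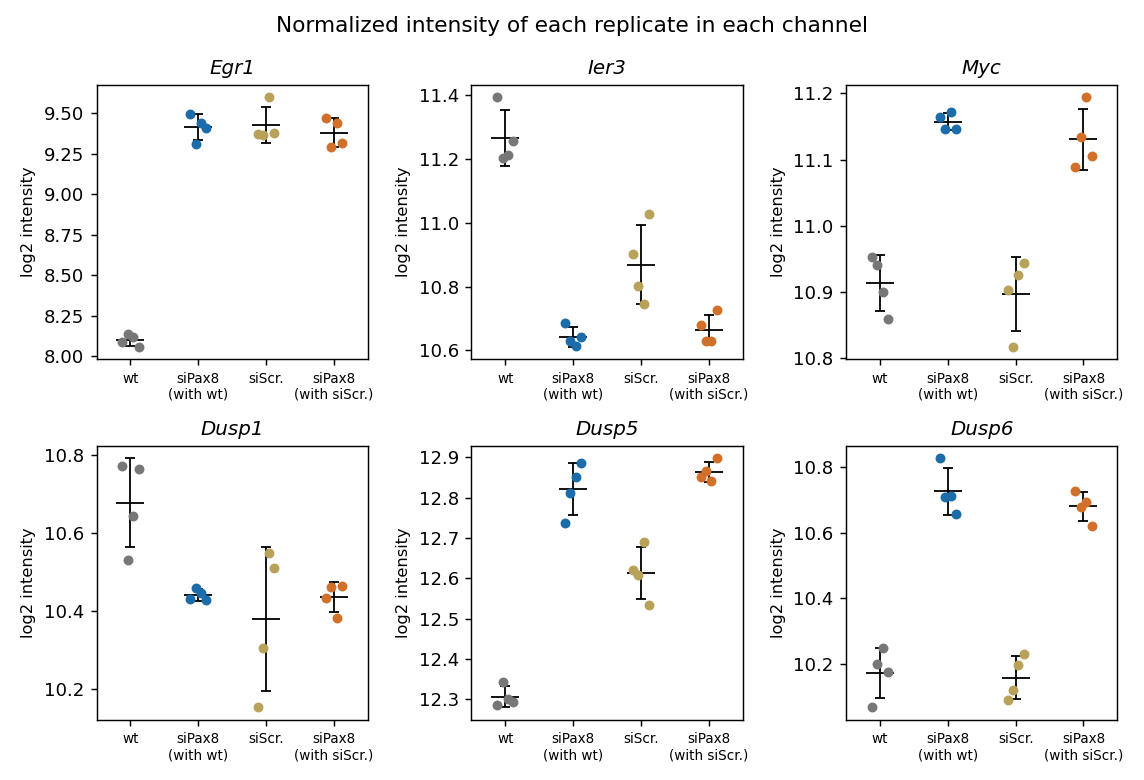
Normalized log2 intensity of 6 genes in wt cells, in the siPax8 cells on the same arrays, in siScramble cells and in the siPax8 cells on their arrays. Points are the 4 replicates, bars the mean ± SD, and each panel has its own axis because intensities of different probes cannot be compared. For Egr1 the siScramble points lie with siPax8, at 9.37 to 9.60, whereas for Myc and Dusp6 they lie with wt.

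Ier3, an early response gene linked to cell survival and to ERK signalling, had the largest fall among the members. Its log2 intensity was 11.39, 11.20, 11.21 and 11.26 in wt cells and 10.68, 10.63, 10.61 and 10.64 in siPax8 cells. The groups did not overlap. The log2 ratios of -0.71, -0.57, -0.60 and -0.61 averaged -0.62 ± 0.059 (SD, n = 4; limma adjusted p = 2.16e-06), so siPax8 cells had 64.9% of the wt level. Against siScramble the ratios were -0.22, -0.17, -0.12 and -0.30, all below 0, with a mean of -0.20 ± 0.078 that missed the threshold (adjusted p = 0.0146). All 8 arrays of each comparison lay below 0. That siScramble ratio did pass with the slide as a block (adjusted p = 0.00143), with a term for the dye (0.0018) and with siPax8 in Cy3 alone (0.00335). The fits with the slide or the dye term counted the 8 single arrays as units, although each replicate supplied an array in each dye orientation. With the replicate as a block it passed as well (0.00259). That fit also took the 8 single arrays, with a correlation estimated at -0.12 between the arrays of a replicate. It therefore did not reduce the data to 4 replicate values.

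Myc, the growth-promoting transcription factor, moved by a similar and small amount against both controls. Its log2 ratios to wt were 0.21, 0.21, 0.27 and 0.29, a mean of 0.24 ± 0.041 (SD, n = 4; limma adjusted p = 0.000324), or 1.18-fold. Its ratios to siScramble were 0.19, 0.32, 0.27 and 0.16, a mean of 0.23 ± 0.073, or 1.18-fold, which missed the threshold (adjusted p = 0.00762). In both comparisons all 4 siPax8 replicates were brighter than all 4 control replicates. The size of the Myc ratio differed between the dyes. With siPax8 in Cy5 the mean ratio was 0.14 (adjusted p = 0.0146) to wt and 0.062 to siScramble, and in Cy3 it was 0.35 and 0.41. The Myc ratio to wt also did not pass with the intensities processed by the scanner software (0.26, limma adjusted p = 0.0279). Klf4, a zinc finger factor of epithelial differentiation, was close to background, well above it on 2 of 8 siPax8 and 4 of 8 wt arrays. Its mean ratio was -0.042 ± 0.063 to wt (adjusted p = 0.462) and -0.014 ± 0.027 to siScramble (adjusted p = 0.851), and neither call can be read as absence of a change.

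Dusp5 and Dusp6, nuclear and cytoplasmic phosphatases of ERK, had the largest ratios of the Dusp group against wt. Dusp5 had a log2 intensity of 12.29, 12.34, 12.30 and 12.29 in wt cells and 12.74, 12.81, 12.85 and 12.89 in siPax8 cells. The log2 ratios of 0.45, 0.47, 0.55 and 0.59 averaged 0.52 ± 0.067 (SD, n = 4; limma adjusted p = 8.21e-06), or 1.43-fold. Against siScramble they were 0.23, 0.26, 0.15 and 0.36, a mean of 0.25 ± 0.088 that missed the threshold (adjusted p = 0.00878). Each of the 8 arrays in each comparison was above 0. With both comparisons in 1 fit it passed against siScramble (adjusted p = 0.00128). The Dusp5 ratio to wt was 0.54 with the intensities processed by the scanner software and did not pass there (limma adjusted p = 0.00526).

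Dusp6 had a log2 intensity of 10.07, 10.20, 10.25 and 10.17 in wt cells and 10.83, 10.71, 10.71 and 10.66 in the siPax8 cells beside them. Its log2 ratios of 0.76, 0.51, 0.46 and 0.48 averaged 0.55 ± 0.14 (SD, n = 4; limma adjusted p = 4.6e-05), or 1.47-fold. In siScramble cells the intensity was 10.09, 10.12, 10.20 and 10.23, and in siPax8 cells 10.73, 10.68, 10.69 and 10.62. The groups did not overlap, and the ratios of 0.64, 0.56, 0.50 and 0.39 averaged 0.52 ± 0.11 (adjusted p = 0.000822), or 1.44-fold. By its ratio to siScramble Dusp6 stood at rank 38 of the 8899 named genes. That call was lost without replicate 2 (adjusted p = 0.011) and without replicate 3 (adjusted p = 0.00859), with ratios of 0.51 and 0.53. With the intensities processed by the scanner software Dusp6 passed in neither comparison. Its ratio was then 0.60 to wt (limma adjusted p = 0.00635) and 0.55 to siScramble (0.0427). The Dusp6 ratio also differed between the dyes. With siPax8 in Cy5 it was 0.34 to wt and 0.29 to siScramble, where it did not pass (adjusted p = 0.125), and in Cy3 it was 0.77 and 0.75. The lowest single array, against siScramble in Cy5, gave -0.067.

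Dusp4, a nuclear phosphatase of ERK and JNK, was dim but above background on every array. Its log2 ratios to siScramble were 0.37, 0.25, 0.27 and 0.25, a mean of 0.29 ± 0.059 (SD, n = 4; limma adjusted p = 0.00258), or 1.22-fold, and all 8 arrays lay above 0. The size of the ratio moved with the background correction. It was 0.46 with a normexp offset of 10, and 0.86 with the intensities of the scanner software, where it did not pass (adjusted p = 0.0122). The call was also lost when any 1 of the replicates was left out, with adjusted p from 0.00744 to 0.0209. Against wt the ratios were 0.34, 0.29, 0.11 and 0.10, a mean of 0.21 ± 0.12 that missed the threshold (adjusted p = 0.00738). This Dusp4 ratio passed under 7 of 18 other settings, among them the slide as a block (0.000988), a term for the dye (0.00172) and both comparisons in 1 fit (0.00306). The fits with the slide or the dye term counted single arrays as units. With the replicate as a block, a fit that also took the 8 single arrays, it did not pass (0.00613). This ratio was 0.35 with the offset of 10 and 0.66 with the intensities of the scanner software. Dusp1, the phosphatase induced by stress and cyclic AMP, was the one phosphatase of the 4 that was lower than in wt. Its ratios were -0.34, -0.071, -0.20 and -0.34, a mean of -0.24 ± 0.13 (adjusted p = 0.0046), or 84.8% of the wt level. The Dusp1 call was lost under 10 of 18 other settings, among them without replicate 1, 3 or 4 (adjusted p = 0.00953, 0.0224 and 0.0293). Against siScramble its ratios were 0.28, 0.16, -0.17 and -0.045, on both sides of 0 (mean 0.056 ± 0.20, adjusted p = 0.765). The spread lay in the control cells. The SD of the log2 intensity of Dusp1 was 0.015 and 0.038 over the siPax8 replicates, 0.11 over wt and 0.19 over siScramble replicates.

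The arrays were spread over 4 slides that each held 2 arrays of each comparison. Within single slides the Egr1 ratio to wt ranged from 1.23 to 1.46 and that of Ier3 from -0.68 to -0.57. For Dusp6 the slide values lay between 0.46 and 0.67 over wt and between 0.34 and 0.69 over siScramble.

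**Figure D3:**
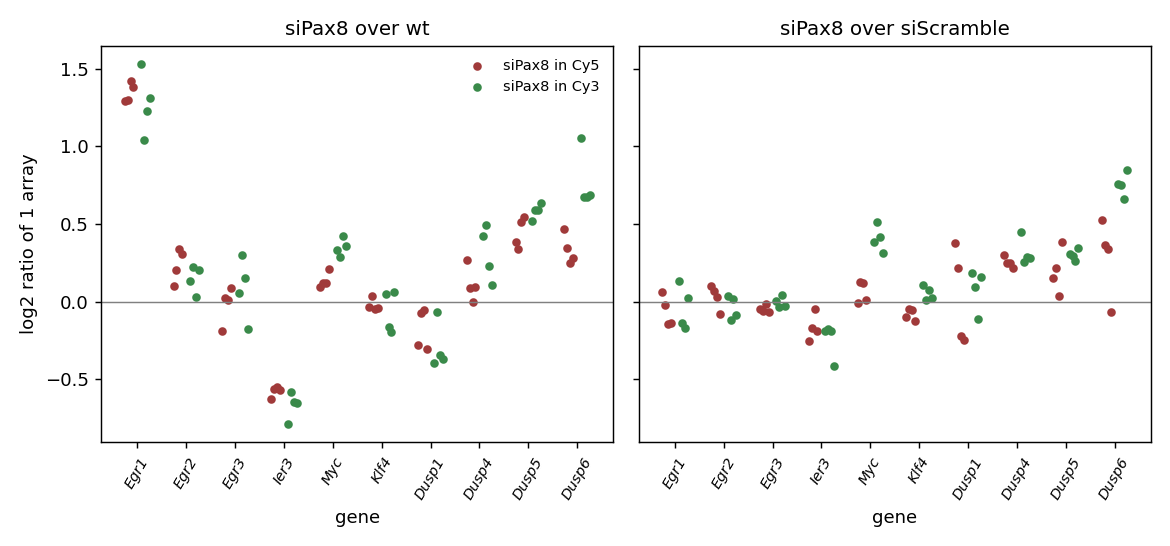
Log2 ratio of each single array, against wt (left) and against siScramble (right), with siPax8 in Cy5 (red) or in Cy3 (green). The points of the 2 dyes overlap for Egr1, whereas for Dusp6 and Myc the Cy3 points lie higher, at a mean of 0.75 against 0.29 for Dusp6 over siScramble.

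The difference between the comparisons, log2 siPax8 over wt minus log2 siPax8 over siScramble, contrasts siScramble with wt cells indirectly. Its fit took the comparisons as independent of each other, which the sources do not settle, and its intervals and p-values rest on that. The difference passed for 2 of the 10 genes, where 3.44% of all probes did. Egr1 differed by 1.36 (95% interval 1.22 to 1.5; limma adjusted p = 1.14e-06), which makes the siScramble cells 2.57-fold higher than wt cells. Ier3 differed by -0.42 (-0.53 to -0.31; adjusted p = 0.000348), so siScramble cells had a lower level than wt. The Ier3 difference missed the threshold without replicate 2 (adjusted p = 0.00588) or 3 (0.00606). Another 3 members had intervals that kept clear of 0 without passing the adjusted threshold. These were Dusp5 at 0.26 (0.15 to 0.38; adjusted p = 0.0081), Egr2 at 0.20 (0.099 to 0.30; adjusted p = 0.0172) and Dusp1 at -0.29 (-0.50 to -0.086; adjusted p = 0.0788). For the rest the intervals bound the difference: Myc from -0.086 to 0.11, Dusp6 from -0.13 to 0.19, Dusp4 from -0.21 to 0.058, Egr3 from -0.055 to 0.17 and Klf4 from -0.12 to 0.060. The 3 genes with a CArG box in the printed windows, Egr1, Egr2 and Dusp5, had the 3 largest positive differences. Dusp1, with the full cyclic AMP element, had a negative one. This was noticed after the values were known and rests on 6 windows, so it is given as a description. Egr3, Ier3, Myc and Dusp4 had no window and were not searched. Partial cyclic AMP sites were not searched, and the windows of Egr1, Egr2 and Dusp5 each hold cgtca, a part of that element.

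**Figure D4:**
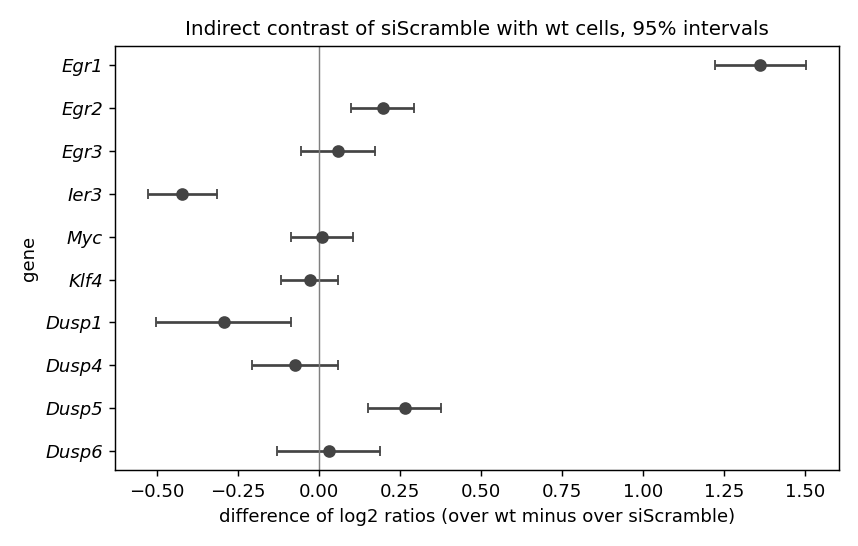
Difference of the log2 ratios (over wt minus over siScramble) with its 95% interval for the 10 genes. Values above 0 mean higher in siScramble than in wt cells. Egr1 stands at 1.36 and Ier3 at -0.42, whereas the intervals of Myc, Dusp4, Dusp6, Egr3 and Klf4 span 0.

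The same pathways were read through 109 other genes that the array names, of 181 listed. Of these, 34 passed against wt, 24 higher and 10 lower, and 14 passed against siScramble, 9 higher and 5 lower. Over all 8899 named genes the counts were 646 higher and 842 lower against wt, and 149 higher and 117 lower against siScramble. A gene with several probes was counted only where each of its probes passed in one direction. Among 39 other immediate early genes 12 were higher and 3 lower against wt, with a median log2 ratio of 0.064, and 5 were higher and 2 lower against siScramble, with a median of 0.082. Gadd45a, a growth arrest gene induced by DNA damage and stress, rose by 1.74 ± 0.047 against wt (SD, n = 4; limma adjusted p = 7.42e-09) and by 0.98 ± 0.078 against siScramble (adjusted p = 4.94e-05). Sik1, a kinase gene induced by cyclic AMP, fell by 1.03 against wt (SD 0.14; adjusted p = 1.31e-06), and its ratio to siScramble was -0.34 ± 0.27 (adjusted p = 0.0716). Klf6, a zinc finger factor, rose against wt in both of its probes, by 0.63 ± 0.082 and 0.94 ± 0.083 (adjusted p = 3.78e-06 and 4.24e-07), with 0.10 and 0.21 against siScramble.

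The AP-1 genes, which encode the partners that early signals bring together on DNA, are the closest relatives in time of the Egr genes. Of 7 measured, 4 were higher and 2 lower against wt, and 3 were higher and 2 lower against siScramble. Fos rose by 0.86 ± 0.046 against wt (adjusted p = 2.74e-07) and fell by 0.22 against siScramble (SD 0.032; adjusted p = 0.0038), a call that was lost without any 1 of the replicates (0.0153 to 0.0289). The difference of Fos between the comparisons was 1.08 (95% interval 1.00 to 1.16; adjusted p = 5.73e-07), next to 1.36 for Egr1. Jun rose by 0.92 ± 0.051 and 0.47 ± 0.10 (adjusted p = 2.32e-07 and 0.00121). Batf3, a partner of Jun, fell by 0.87 and 0.36 (SD 0.16 and 0.059; adjusted p = 6.16e-06 and 0.00102). Against siScramble Jun was not called without replicate 1, 2 or 4 (0.00561, 0.0145 and 0.00602), nor Batf3 without replicate 1 or 2 (0.00567 and 0.0138).

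The ERK cascade holds the kinases on which the Dusp enzymes act and those above them. In it 20 genes were measured, of which 1 was higher and 2 lower against wt and 1 was higher against siScramble, with medians of -0.058 and 0.0037. Of all 8899 named genes 1488 passed against wt and 266 against siScramble. The counts of the lists here and below are to be read beside these, and no list was tested against them. Map2k1, which encodes MEK1, rose by 0.34 ± 0.12 against wt (limma adjusted p = 0.000477), although without replicate 2 or 3 it did not pass (0.00506 and 0.00532). The adaptor Shc1 fell in both probes, by 0.61 and 0.37 (adjusted p = 3.96e-06 and 2.21e-05), and the kinase Rps6ka1 fell by 0.32 (adjusted p = 0.000106). The Rps6ka1 ratio was -0.57 with siPax8 in Cy5 alone and -0.057 in Cy3 alone, where it did not pass (0.464). The receptor Fgfr1, named after its values were seen as the 1 gene called against siScramble, rose by 0.44 ± 0.048 there (adjusted p = 0.000375). Of 7 feedback inhibitors 1 passed, in both comparisons, namely Errfi1, which binds and blocks the EGF receptor. It fell by 0.41 against wt and by 0.54 against siScramble (adjusted p = 2.27e-05 and 0.00138; against siScramble 0.0136 and 0.00556 without replicate 2 or 4), and it is also counted among the early genes above. Of 6 EGF receptor ligands 2 were higher against wt, Areg by 0.45 ± 0.14 (adjusted p = 0.00017) and Egf by 0.18 ± 0.035 (adjusted p = 0.00149), and against siScramble 0 passed by limma and 1 at an unadjusted p under 0.05. The Egf call was lost without replicate 2, 3 or 4 (0.00761, 0.0142 and 0.00839).

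Among the other phosphatases Dusp2, which acts on ERK and p38 in the nucleus, fell against siScramble by 0.38 (SD 0.10; limma adjusted p = 0.00249), with a ratio of 0.030 ± 0.059 to wt, and the call was lost without any 1 of the replicates (0.00553 to 0.0224). It was the 1 called of 2 other MAP kinase phosphatases measured. Of 6 further dual specificity phosphatases 1 passed, Dusp14, which rose by 0.21 ± 0.030 against wt (adjusted p = 0.000705; 0.00587, 0.00702 and 0.00629 without replicate 2, 3 or 4). In the JNK and p38 branch 4 of 14 genes were higher against wt and 1 lower, and against siScramble 0 passed by limma and 3 at an unadjusted p under 0.05. Map2k7 rose by 0.36 ± 0.16 (adjusted p = 0.000967), with the wt channel above background on 4 of 8 arrays, Mapkapk3 rose by 0.26 ± 0.13 (adjusted p = 0.00257) and Mapk13 fell by 0.51 (SD 0.11; adjusted p = 3.1e-05). The Map2k7 call was lost without replicate 3 or 4 (0.00701 and 0.00769), and that of Mapkapk3 without replicate 2, 3 or 4 (0.0078, 0.00569 and 0.00928). Of 8 genes around Myc 2 fell against wt, the Max partner Mxd3 by 0.36 (adjusted p = 3.2e-05) and Odc1, a classical Myc target, by 0.31 and 0.30 in its probes (adjusted p = 0.00252 and 0.000537). The Odc1 call was lost without replicate 2, 3 or 4 (0.012, 0.0114 and 0.00611). Nab1, the corepressor of EGR factors that was measured, had ratios of 0.028 and -0.028 and passed in neither comparison.

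**Figure D5:**
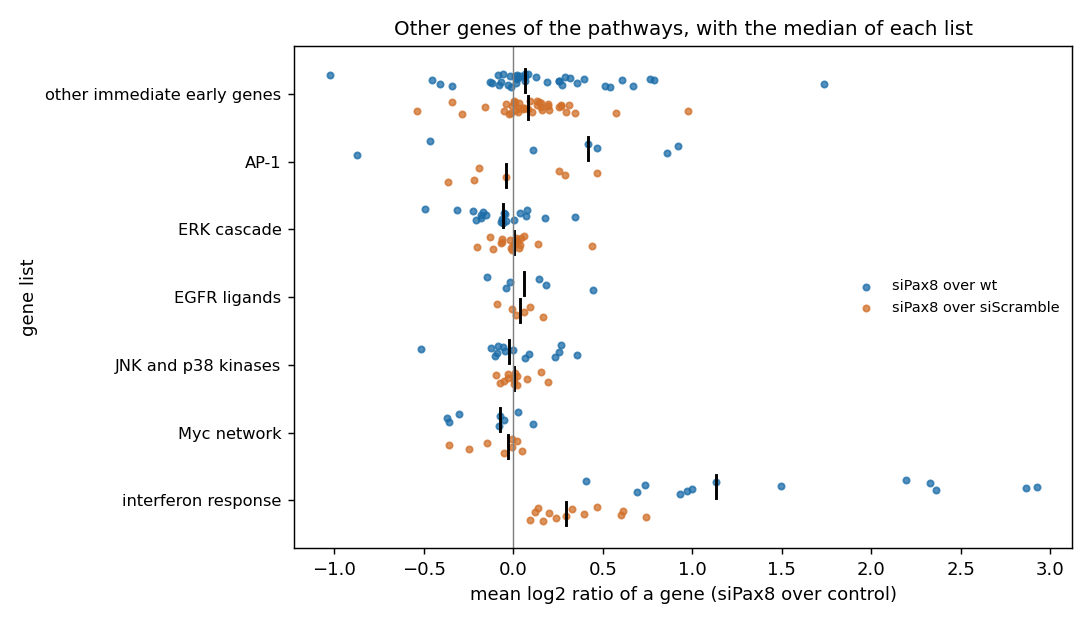
Mean log2 ratio of each measured gene of 7 lists, over wt (blue) and over siScramble (orange). Points are genes and black bars the list medians. The interferon genes lie highest against wt, with a median of 1.13 against 0.29 over siScramble, and the AP-1 genes spread from -0.87 to 0.92 against wt.

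Genes with the pattern most like that of Egr1 were sought among 1530 named genes that passed in at least 1 comparison, by the root mean square difference over the 8 replicate ratios. The closest were Oas1b (0.28), Oas1i (0.29), Lgals9 (0.32), Ccl5 (0.32) and Ifit3 (0.33). Against siScramble Ccl5 had a mean ratio of -0.43, a call lost under 9 of 18 other settings. The others had 0.20 to 0.25 there, and Egr1 -0.049. Interferon response genes, a set induced by viral and other foreign RNA, moved with the Egr1 ratio between the comparisons. Of 13 measured, 12 were higher against wt and 1 against siScramble, and 8 passed for the difference. Against siScramble all 13 had a ratio above 0, and 12 had an unadjusted p under 0.05. Oas1a had a mean ratio of 2.93 ± 0.44 to wt and 0.40 ± 0.29 to siScramble, Mx2 of 2.86 ± 0.53 and 0.60 ± 0.44, and Irf7 of 2.36 ± 0.087 and 0.74 ± 0.12. The summed intensity over their 19 probes was 11417 to 12641 in wt, 27819 to 33536 in siScramble and 37611 to 53158 in siPax8 cells. In these interferon sums the siScramble cells lay between wt and siPax8 cells, whereas for Egr1 they lay level with siPax8 cells. The part of this response in the Egr1 ratio was not tested. Heat shock genes, another stress set, had 0 calls among 7 in either comparison by limma and 2 in each at an unadjusted p under 0.05, with medians of 0.030 and -0.081.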

How the data were processed

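PCCl3 rat thyroid cells were profiled on 16 2-colour Agilent arrays, 8 per comparison, each replicate in both dye orientations. The authors deposited scanner files with unnormalized fluorescence intensities (mean signal and median background of each dye), Agilent-processed intensities, and a table of normalized log2 ratios, which correlated with the ratios computed here at -0.999 to -0.992 and so holds control over siPax8 on a log2 scale, with column medians of -0.00011 to 0.0068. How it was centred is not given in the sources used here. Feature Extraction 10.1.1.1 stands in the headers, whereas the methods give an earlier version. The number of arrays limits the precision, and 112 to 215 spots per array marked as outliers were left out.

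The software was limma 3.58.1 under R 4.3.3, with statmod 1.5.0 and the data.table package, version 1.17.8. Steps were normexp background with an offset of 50, loess within arrays, removal of 1639 control spots of 45018, and quantile normalization of all channels. The ratios, turned to siPax8 over control, were averaged per probe and then per replicate over its dye-swapped arrays. Each comparison had its own lmFit and eBayes fit of 4 values a probe, and the difference was fitted to 8 values as separate groups. Benjamini-Hochberg adjustment ran over 41012 probes, with the threshold of 0.005 that the methods give. Between the dye orientations, deviations of same-numbered arrays correlated at 0.12 to 0.47 (wt) and 0.33 to 0.58 (siScramble). Arrays with different numbers correlated at up to 0.25 (wt) and 0.35 (siScramble), above the lowest same-numbered value of each comparison. The arrays lay on 4 slides, each with 2 arrays of each comparison.

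Groups, dyes and replicate numbers came from the labels, and samples of a group are called biological replicates there. Symbols came from RefSeq accessions (GRCr8), which named 10768 probes. Named genes were the members, Pax8, up to 3 genes per list with the largest absolute ratio to wt among those called in either comparison, and the 5 most like Egr1; Fgfr1, Col1a2 and Calca were named beyond this rule, and 1 gene that the rule named is not reported here. The members and lists were chosen with earlier results of these data known. Scripts were tested on simulated data. Alternatives were other background corrections and normalizations, the deposited table, single dyes, blocks, a dye term, a joint fit, a filter on dim probes, another threshold, the brightest probe, leaving out each replicate and, chosen after seeing the data, keeping outlier spots.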

Additional observations from a re-analysis of the deposited data

Results flagged for a closer look

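Among the 20 groups of 4 replicate ratios of these genes, 2 held a replicate that lay far from the others by Dixon's test at the 95% level, where chance flags about 1 in 20 groups. Replicate 1 of Dusp6 against wt had a log2 ratio of 0.76, against 0.46 to 0.51 in the others, and without it the mean was 0.49. Replicate 1 of Dusp4 against siScramble had a ratio of 0.37, against 0.25 to 0.27 in the others, and without it the mean was 0.26.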

How the results depend on the processing

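Over 18 alternatives Egr1 kept its direction and its side of the threshold against wt (1.28 to 1.69), against siScramble (-0.098 to -0.013) and in the difference (1.32 to 1.75), and Ier3 did against wt (-0.67 to -0.58). Of 532 values of the members under alternatives, 452 kept direction and side, 34 lost the threshold, 31 gained it and 15 changed sign. From Agilent's own processed signals the members called were 2 against wt, 0 against siScramble and 1 for the difference. The other pathway genes called were then 12, 0 and 3. Against siScramble the members called were 1 with loess alone and 1 with quantiles of the average intensity, which leave ratios as loess makes them, 0 with siPax8 in Cy5 alone, 5 in Cy3 alone, 5 with a term for the dye, 4 with the slide as block, 5 with both comparisons in 1 fit, 5 at a threshold of 0.05, and 0 to 1 with a replicate left out, 0 without replicate 2 or 3. The other pathway genes against siScramble were 8, 8, 1 and 25 under the first 4 of these settings, 25 at the threshold of 0.05 and 2 to 5 with a replicate left out. Against wt they were 22 with siPax8 in Cy3 alone. For the difference the members called were 4 with a term for the dye, 4 at 0.05 and 1 to 2 with a replicate left out, and the other pathway genes 20, 23 and 6 to 14. The fits with a term for the dye or with the slide as block took single arrays as units, so the dye-swapped arrays of 1 replicate counted separately. With the replicate number as a block the members called were 4 against siScramble and 3 for the difference, with Ier3 and Dusp5 added in the former and Dusp5 in the latter. Against siScramble that fit also took the 8 single arrays, with a correlation estimated at -0.12 within a replicate. For the difference it took the replicate values. Between the comparisons same-numbered deviations correlated at 0.40, 0.18, 0.045 and 0.57, so the numbers were not taken as pairs there.

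The values that changed sign had not passed the test. With siPax8 in Cy5 alone Egr3 over wt was -0.017, Egr2 over siScramble 0.029, the Klf4 difference 0.059 and Mapk13 over siScramble -0.086. In Cy3 alone Klf4 over siScramble was 0.052, the Myc difference -0.054, and over siScramble Sik1 was 0.17, Map2k1 -0.059, Rps6ka1 0.18, Odc1 -0.14 and Cd68 0.036. With Agilent's processed intensities Egr2 and Egr3 over siScramble were 0.13 and 0.044, and with loess alone, and with quantiles of the average intensity, Egr2 was 0.0030 and Cd68 0.012. With a replicate left out Egr3 over wt ranged from -0.0089 to 0.067, and over siScramble Egr2 from -0.028 to 0.022, Dusp1 from -0.018 to 0.13, Shc1 from -0.0066 to 0.12, Odc1 from -0.018 to 0.044, Mapk13 from -0.092 to 0.12 and Cd68 from -0.032 to 0.027. The Myc difference ranged from -0.028 to 0.051 and that of Klf4 from -0.057 to 0.0066. Single dyes also ended calls and moved values by over 1.5 times: Dusp14 over wt was 0.082 and Odc1 over wt -0.15 in Cy5 alone, Map2k1 over wt 0.20 and Egf over wt 0.11 in Cy3 alone, and Fos over siScramble -0.14 in Cy5 alone. The causes were not tested. Each member has 1 probe, so the brightest probe changes nothing for them, and Egr2, Egr3 and Klf4 have no value under the filter on dim probes where they fail it. Low signal over background limits what can be said of these 3 genes.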
